A study of Mus musculus with 36 samples.

Results

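The replication-dependent histone genes are described here in cultured mouse endothelial cells. They were taken as every row of the count table whose symbol begins with Hist1h, Hist2h, Hist3h or Hist4h, which gave 69 of 26400 rows. By symbol they comprised 6 linker H1 genes, 20 H2A, 19 H2B, 11 H3 and 13 H4 genes. Of these, 55 lay on chromosome 13 between chr13:21715763-23934851 (GRCm38), 9 at chr3:96219865-96270132, 3 at chr11:58948920-58956830 and 1, Hist4h4, on chromosome 6. The remaining member, Hist1h2al, lay apart on chromosome 13 and was annotated as a pseudogene, as were Hist1h2aj and Hist3h2bb-ps.

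The cells were C166, a mouse endothelial line, and C1.1, a clone of C166 from which CRISPR editing had removed 1 hairpin of miR-466c in an intron of Sfmbt2. The study describes other miR-466c hairpins in the same cluster. Each line was grown in normoxia or in hypoxia (1% O2) for 2 h or 24 h and separated into nucleus and cytoplasm, with 3 libraries in each of the 12 groups. The normoxic samples are labelled 0hr, with no normoxic label at 2 h or 24 h. From the labels, hypoxia and time in culture therefore cannot be told apart. Because C1.1 is 1 clone, the deletion and any other property of that clone cannot be told apart. Sfmbt2 itself had 362 to 1325 counts in the C166 libraries and 350 to 1439 in the C1.1 libraries, and miR-466c itself was not analysed here, so the deletion was not checked.

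Replication-dependent histone genes supply the H1, H2A, H2B, H3 and H4 proteins that package newly made DNA in S phase. Their messages are unusual among animal mRNAs in that they carry no introns and end in a conserved stem-loop in place of a poly(A) tail. The stem-loop binding protein SLBP holds this hairpin, the U7 snRNP and a cleavage complex cut the message behind it, and oligouridylation and exonuclease decay remove the message when DNA synthesis stops. A library made from poly(A)-selected RNA largely misses such messages, whereas these libraries were made from total RNA depleted of rRNA.

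The stem-loops are shown because they are the element that sets these messages apart, and because the H4 genes carry a form of their own. Each was read from the transcript sequence behind the stop codon (GENCODE M21, GRCm38), with the 2 arms of the stem in capitals and the loop of 4 bases in lower case.

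H1, H2A, H2B and H3, 25 members: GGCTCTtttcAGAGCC

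H4, 7 members: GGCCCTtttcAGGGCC

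H1, H2B and H3, 6 members: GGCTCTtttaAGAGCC

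H4, 2 members: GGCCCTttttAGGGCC

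H4, 2 members: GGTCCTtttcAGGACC

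H2A, Hist2h2ac: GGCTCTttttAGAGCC

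The search asked for a left arm of 6 bases that begins GG and ends T, a loop that begins TT, a right arm that begins A and ends CC, and at least 5 of 6 base pairs. It found a stem-loop in 43 of the 51 members whose annotated transcript ran at least 16 bases past the stop codon, 22 to 59 bases behind that codon. The hairpin was thus found in 84.3% of these 51 members, against 20 of 20999 other protein-coding genes (0.0952%) in the first 100 bases behind the stop codon. Those 20 included H2afx, H2bfm and Hist2h3c1, a histone H3 gene that was not analysed here. Every H4 stem-loop differed from those of the other classes in the stem, whereas 1 sequence was shared by H1, H2A, H2B and H3 genes on 3 chromosomes. The 8 members with at least 16 such bases but no match were Hist1h1a, Hist1h2bc, Hist1h2bq, Hist1h2br, Hist1h3g, Hist1h4a, Hist2h2be and Hist2h3b. This does not show that they lack the hairpin. For Hist2h3b only 37 bases behind the stop codon were annotated and for Hist1h1a 48, and a hairpin past the annotated end could not be found.

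Promoter elements also sorted by class. RefSeq promoters of GRCm38.p6 (250 bases before to 50 bases after the start) were matched for 60 members with 61 promoters, and the shares below are set against all 32851 promoters of that table. The TATA box TATAAA, searched on the gene's strand, was present in 49.2% of the member promoters and 8.32% of all promoters. CCAAT, searched on both strands like the remaining motifs, was present in 85.2% against 37.4%, in every H1, H2A, H2B and H3 promoter and in 25% of the H4 promoters. The octamer ATTTGCAT, a site for OCT1-type factors, was present in 23% against 1.74%, with 41.2% of the H2A promoters and 41.2% of the H2B promoters and no other class. Some H2A and H2B promoters overlap, such as those of Hist1h2ae and Hist1h2bg and those of Hist1h2ah and Hist1h2bk. With both strands searched, 1 octamer or CCAAT there counts in both classes, so the H2A and H2B shares are not independent. GGTCCG, the core of the H4 element bound by HINFP, was present in 21.3% against 8.25%, and in 11 of the 12 H4 promoters. These are matches of letters, which do not show that a factor was bound.

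Members resemble each other closely, so a read of 1 member can match other rows as well. Of the 50-base windows of their transcripts, 12 members had under 10% that occurred in no other gene, and Hist1h1a, Hist1h1b, Hist1h1t and Hist2h2be had 100%. A match on either strand counted as an occurrence, although the libraries were stranded. CPM is a row's share of a library's counts on the usual scale, with library sizes scaled by the trimmed mean of M values (TMM). Mean CPM per kb of a gene's longest annotated transcript had a median of 25.9 over those 12 members and 80.6 over the other 57. The 12 ranged from 0.0017 to 1403 and the 57 from 0.0187 to 421, and whether own sequence set these levels was not tested. Both medians depend on the annotated lengths. How reads with several matches and reads of either strand were counted was not given in the sources used here. On the other strand 23 members overlap a gene, and on the same strand 6 do. These 6 include Hist1h1e and Hist1h2be, which overlap each other, and Hist2h2bb, which overlaps Gm42743. Hist2h2bb, Hist2h3b, Hist2h2aa1 and Hist2h2aa2 had no window of their own. Hist2h2bb and Hist2h3b share every window with Gm20628, an annotated gene on the other strand whose own row held only 23 to 208 counts a library, so reads of these loci were assigned by a rule that cannot be seen in the table. Hist1h2bq, a rare row with 2.68% of windows of its own, was erratic: 90 counts in replicate 1 of normoxic C1.1 cytoplasm, 31 in replicate 1 of 24 h hypoxic C1.1 cytoplasm and at most 4 in every other cytoplasmic library. The rows with under 10% differed in this. The highest CPM of a library was 74.2 times the median for the rare Hist1h2aj, but 1.93 times for Hist1h2ai and 2.15 times for Hist2h2bb. The parts of low counts and of shared sequence were not tested.

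**Figure D1:**
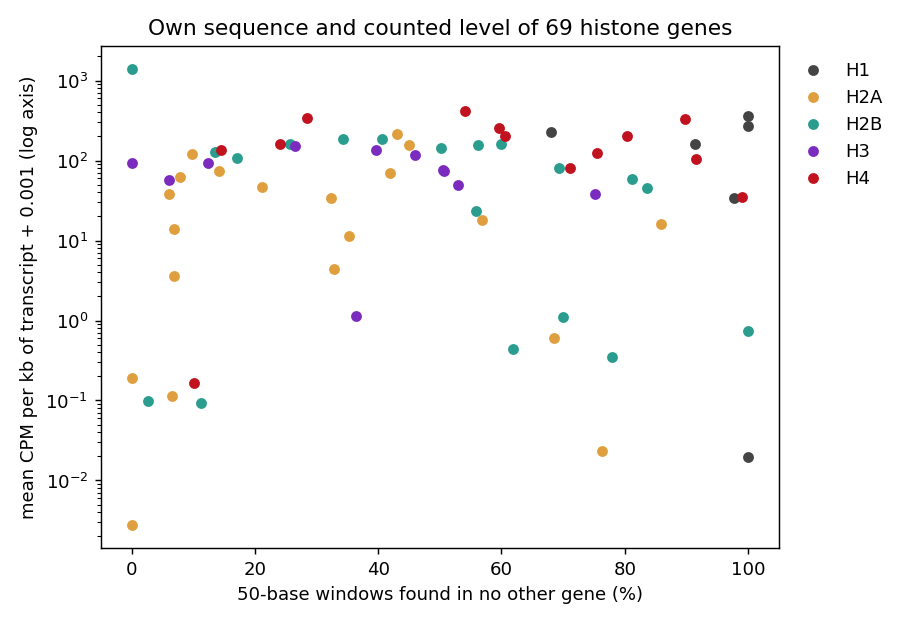
Each point is 1 of the 69 histone genes, with the percent of its 50-base windows found in no other gene on the x axis and its mean CPM per kb of transcript over the 36 libraries, plus 0.001, on a log y axis. Colours mark the class. Hist2h2bb stands at 0% and 1403 CPM per kb, above all other members, with a transcript annotated at 381 bases that holds the coding part alone.

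The 69 rows held 0.547 to 0.837% of all counts in the cytoplasmic libraries and 0.327 to 0.559% in the nuclear libraries. Counts were concentrated: 10 members held 53.4% of the counts of all 69, 14 members had a mean over 100 CPM, 37 had 10 to 100, 7 had 1 to 10 and 11 were under 1. Per kb of the longest annotated transcript, the order of the linker genes differed between the lines. In C166 Hist1h1a stood at 428 CPM per kb, Hist1h1b at 383 and Hist1h1e at 236, and in C1.1 Hist1h1b stood at 330, Hist1h1e at 215, Hist1h1c at 168 and Hist1h1a at 114 (means of 18 libraries). Hist1h1d stood at 32 in C166 and 36 in C1.1, divided by 7425 annotated bases where Hist1h1a was divided by 741. The order of genes within a class thus depends on annotated lengths. The first gene of the other classes was the same in both lines: Hist1h2ak in H2A at 245 CPM per kb in C166 and 190 in C1.1, Hist2h2bb in H2B at 1744 and 1061, Hist1h3e in H3 at 159 and 143, and Hist1h4h in H4 at 420 and 423. With no correction for length, and pooled over both lines, the 3 members of each class with the highest mean CPM were Hist1h1e (435), Hist1h1b (265) and Hist1h1d (252) in H1, Hist1h2ak (85.4), Hist2h2ac (80.7) and Hist1h2ai (47.3) in H2A, and Hist2h2bb (534), Hist1h2be (114) and Hist1h2bh (99.5) in H2B. In H3 they were Hist1h3e (126), Hist1h3f (94.3) and Hist1h3b (84.6), and in H4 they were Hist1h4d (377), Hist4h4 (297) and Hist1h4h (198). Pooling hides Hist1h1a, whose mean was 317 CPM in C166, above Hist1h1b (284), and 84.3 CPM in C1.1. Members known from testis were close to absent: the testis linker Hist1h1t had 15 counts over all 36 libraries, Hist1h2aa had 7 and Hist1h2ba had 141.

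**Figure D2:**
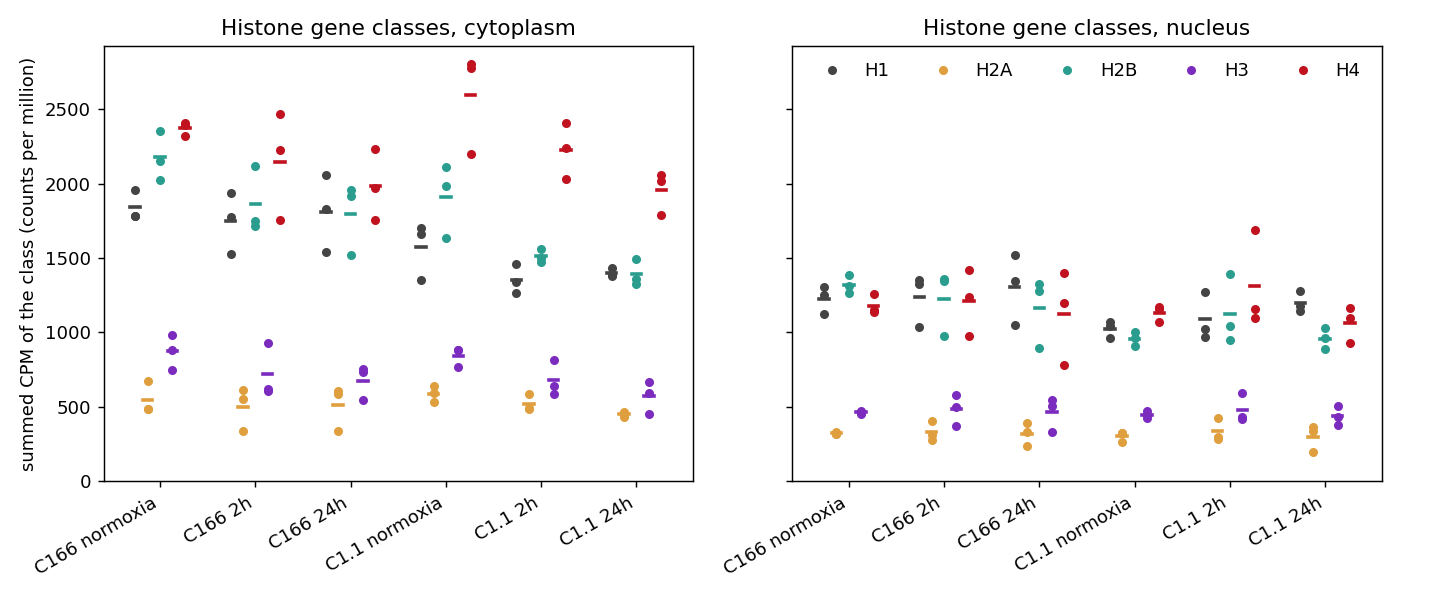
Summed CPM of each histone class (y axis, from 0) in every library of the 12 groups (x axis), with points for libraries and dashes for means of 3, cytoplasm in one panel and nucleus in the other; CPM is scaled within each fraction, so levels are read within a panel. H4 in C1.1 cytoplasm stood at 2778, 2802 and 2201 CPM in normoxia and at 2015, 2060 and 1788 after 24 h of hypoxia.

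Libraries held 15314724 to 28667821 counts. In 35 of them 14879 to 19736 genes were detected, and in replicate 1 of normoxic C166 cytoplasm only 11903. Without that library the count of members called was still 0 for 2 h of hypoxia in C166 cytoplasm, for the difference of the cytoplasmic responses and for the shift of the C166 ratio of nucleus to cytoplasm, and the other counts that use it are given without it where they stand. The fractions differed in nuclear RNAs: 5 such as Malat1 and Neat1 summed to 16085 to 29289 CPM in the nucleus and at most 9337 in the cytoplasm. Each fraction has its own scale, so the 2 ranges compare only roughly. They lay closer in C166 at 24 h than in normoxia, with 8725 to 9337 CPM in the cytoplasm and as little as 19454 in the nucleus. Endothelial markers were low. Of 12 listed, 8 were analysed, their sum was 3.46 to 18.5 CPM, and Pecam1, Cdh5, Kdr and Tie1 never passed 1 CPM. The 8 smooth muscle and mesenchyme markers, led by Acta2 and Col1a1, summed to 4214 to 5780 CPM in normoxic C166 cytoplasm, 1303 to 1503 in normoxic C1.1 cytoplasm, 1102 to 1260 in C166 cytoplasm and 533 to 603 in C1.1 cytoplasm after 24 h of hypoxia, while Myh11 and Lum stayed under 1 CPM. These markers therefore moved with both the line and the oxygen comparisons, and their part in the histone results was not tested.

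Histone messages were lower in the nucleus than in the cytoplasm in both lines. Tests used edgeR's quasi-likelihood fit over all 16682 genes passing a low-count filter, of which 63 were members, and a gene was called at a Benjamini-Hochberg adjusted p under 0.05. In normoxic C166 cells 47 of the 63 were called lower in the nucleus and 1 higher, where 26.2% of all genes were called lower and 31.8% higher. In C1.1 cells 53 were called lower and 1 higher, against 29% and 28.6% of all genes. The median log2 ratio of nucleus to cytoplasm over the members was -0.90 in C166 and -1.08 in C1.1, where that over all genes tested was 0.17 and 0.03. The calls overlapped: 46 members were lower in both lines, 97.9% of the C166 calls and 86.8% of the C1.1 calls. Without replicate 1 of normoxic C166 cytoplasm, 48 were lower and 1 higher in C166. Relative log expression factors raised the median of all genes by 0.115 in C166 and 0.208 in C1.1 and left 42 and 49 members lower. These are shares of each fraction's RNA, so less RNA of a gene in the nucleus and more RNA of other genes there cannot be told apart. Nuclear and cytoplasmic libraries, which may come from the same cells, were treated as separate samples.

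Every tested linker gene showed this pattern. Hist1h1e, a somatic linker histone, had 499, 577 and 650 CPM in the cytoplasm of normoxic C166 and 329, 353 and 373 in its nucleus, on a scale common to all 36 libraries. The groups did not overlap, and all 5 H1 genes tested were called lower in both lines, with medians of -0.67 and -0.70. H4 genes were lower still, at medians of -1.06 in C166 (11 of 12 called) and -1.24 in C1.1 (12 of 12 called), where H2A stood at -0.86 and -1.08, H2B at -0.80 and -1.04, and H3 at -0.99 and -1.03. These classes were not tested against each other.

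Hist1h4h, an H4 gene, had 366, 281 and 345 CPM in normoxic C166 cytoplasm and 134, 139 and 141 in the nucleus, which gave a log2 ratio of -1.26 ± 0.27 (SE, n = 3 a group; edgeR adjusted p = 1.31e-04). Hist2h3b, an H3 gene, fell from 82.6, 67.7 and 104 CPM in the C166 cytoplasm to 24.3, 30.9 and 26.9 in the nucleus (-1.63 ± 0.24, edgeR adjusted p = 2.67e-07), and from 56.3, 70.3 and 56.8 to 21.9, 19.4 and 20.2 in C1.1 (-1.58 ± 0.24, edgeR adjusted p = 5.19e-07). The groups did not overlap in any of these comparisons. In C1.1, Hist1h4a went from 255, 236 and 193 CPM to 84.7, 83.5 and 68.2 (-1.53 ± 0.22, edgeR adjusted p = 1.89e-07) and Hist1h2ae from 22.4, 27 and 21.3 to 9.02, 8.67 and 6.87 (-1.53 ± 0.39, edgeR adjusted p = 9.82e-04), again with no overlap.

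Hist2h3c2, the 1 member higher in the nucleus, was a rare row with 0, 1 and 0 counts in normoxic C166 cytoplasm and 13, 20 and 35 in the nucleus. In C1.1 it had 9, 8 and 16 counts in the cytoplasm and 52, 28 and 54 in the nucleus, where the log2 ratio was 2.47 ± 0.74 (edgeR adjusted p = 0.00446). It shares 63.5% of its windows with Gm20634, and no fold is given for C166. The pseudogene Hist3h2bb-ps was called lower in the C166 nucleus at an edgeR adjusted p of 0.0494, from 69, 33 and 20 counts to 9, 5 and 2, and the call was lost in 5 of 6 refits without a library (edgeR adjusted p = 0.164 without replicate 1 of normoxic C166 cytoplasm).

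**Figure D3:**
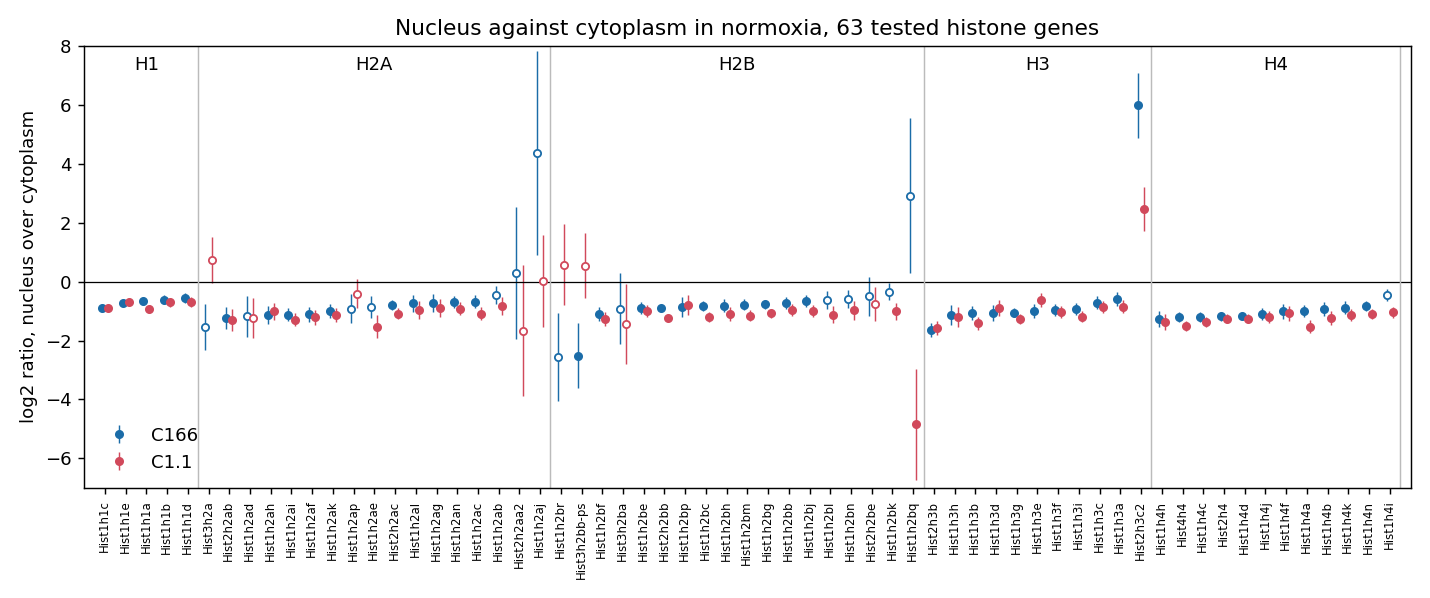
Log2 ratio of nucleus to cytoplasm in normoxia (y axis, bars are SE from edgeR) for each of the 63 tested histone genes (x axis, ordered and grouped as labelled), in C166 and C1.1; filled points were called at an adjusted p under 0.05 and open points were not. Almost every filled point lies below 0, with class medians from -0.67 for H1 to -1.06 for H4 in C166, and the filled point above 0 is Hist2h3c2.

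Between the lines, most members were not called in the main fits, which does not show equal levels, and a few differed by far. In normoxic cytoplasm 4 of 61 members tested were called higher in C1.1 and 5 lower, where 18.2% and 17.3% of all 14998 genes were. In the nucleus 3 of 59 were called higher and 5 lower (4 and 4 with upper-quartile factors), where 18.8% and 21.2% of 15735 genes were. In bulk RNA, fewer cells that express a histone gene and less RNA in each cell cannot be told apart. The members' median log2 fold change was 0.05 for the cytoplasm and -0.07 for the nucleus, against 0.06 and 0.02 over all genes. Hist1h4i, Hist4h4 and Hist2h2be were higher in both fractions, 75% of the cytoplasmic and 100% of the nuclear calls, and Hist1h1a, Hist2h2bb, Hist1h2al and Hist1h4d were lower in both, 80% of each. Without replicate 1 of normoxic C166 cytoplasm 7 were called higher and 5 lower there, and in the nucleus 24 were called, 7 higher and 17 lower, when only the 6 libraries compared were fitted.

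Hist1h1a (chr13:23763666-23764406, GRCm38, with every window its own) encodes the linker histone H1.1. It had 301, 328 and 363 CPM in normoxic C166 cytoplasm and 110, 103 and 94 in C1.1, a log2 fold change of -1.69 ± 0.12 (SE; edgeR adjusted p = 1.93e-09). In the nucleus it had 197, 243 and 229 CPM in C166 and 64.2, 64.2 and 48.9 in C1.1 (-1.92 ± 0.14, edgeR adjusted p = 1.43e-11). Its 9 C166 libraries lay above its 9 C1.1 libraries in both fractions at all times. None of the other 4 tested H1 genes was called between the lines in either fraction.

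Hist1h4i (chr13:22040636-22041362, GRCm38) encodes histone H4 and went the other way. It had 24.3, 25.3 and 32.2 CPM in normoxic C166 cytoplasm and 143, 134 and 129 in C1.1 (2.31 ± 0.19, edgeR adjusted p = 1.56e-08). In the nucleus it had 22.2, 20.4 and 22.1 CPM against 78, 72.8 and 65 (1.74 ± 0.18, edgeR adjusted p = 1.71e-08). Here too all 9 libraries of C1.1 lay above all 9 of C166 in both fractions.

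Hist4h4, the H4 gene on chromosome 6 (chr6:136801553-136804415, GRCm38), had 319, 304 and 363 CPM in normoxic C166 cytoplasm and 755, 683 and 500 in C1.1 (0.98 ± 0.16, edgeR adjusted p = 5.91e-05). Its nuclear levels were 145, 164 and 151 against 256, 241 and 249 CPM (0.70 ± 0.16, edgeR adjusted p = 0.00105). Hist1h4d had 598, 666 and 618 CPM in normoxic C166 cytoplasm and 447, 446 and 420 in C1.1 (-0.52 ± 0.11, edgeR adjusted p = 0.00106). Thus 3 H4 genes changed in opposite directions, while the H4 sum of the normoxic cytoplasm was 2321, 2391 and 2406 CPM in C166 and 2778, 2802 and 2201 in C1.1, which overlap.

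Hist2h2bb, an H2B gene of the chromosome 3 cluster, had 916, 964 and 1050 CPM in normoxic C166 cytoplasm and 705, 613 and 514 in C1.1 (-0.68 ± 0.11, edgeR adjusted p = 6.02e-05). In the nucleus it had 492, 616 and 578 against 297, 297 and 259 CPM (-0.98 ± 0.11, edgeR adjusted p = 1.16e-07), without overlap, though none of its windows was its own when matches on either strand counted. Hist2h2be, an H2B gene known to give poly(A) messages as well, was a low row in which C1.1 was higher: 0, 31 and 23 counts in normoxic C166 cytoplasm and 112, 78 and 102 in C1.1 (2.25 ± 0.69, edgeR adjusted p = 0.0146). Without replicate 1 of normoxic C166 cytoplasm its log2 fold change was 1.68 (edgeR adjusted p = 0.00184), and the call was lost when only the 6 libraries compared were fitted (edgeR adjusted p = 0.197). Its nuclear counts were 11, 12 and 6 against 32, 30 and 64 (2.00 ± 0.53, edgeR adjusted p = 0.00364). The pseudogene Hist1h2al was lower in C1.1 by -0.98 ± 0.27 in the cytoplasm (18.7, 16.8 and 28.1 against 11.1, 11.6 and 9.56 CPM, edgeR adjusted p = 0.00674) and by -1.20 ± 0.28 in the nucleus (edgeR adjusted p = 0.00126).

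Of the remaining calls, Hist2h3c2 (higher) and Hist3h2bb-ps (lower) rested on few counts in the cytoplasm and were lost when some single libraries were left out, both among them without replicate 1 of normoxic C166 cytoplasm (highest edgeR adjusted p 0.079 and 0.0974). Hist2h4 was lower in the nucleus (-0.39, edgeR adjusted p = 0.0271) and lost in 5 of 6 such refits and with upper-quartile factors. Over all times, no overlap of the 9 libraries of each line was seen in the cytoplasm for Hist1h4i and Hist2h2be (C1.1 higher, where 6.17% of genes had none) and for Hist1h1a and Hist1h4d (lower, 5.11% of genes). In the nucleus this held for Hist1h4i and Hist1h2bp (higher, 6.62% of genes) and for Hist1h1a, Hist1h2al and Hist2h2bb (lower, 7.3%).

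**Figure D4:**
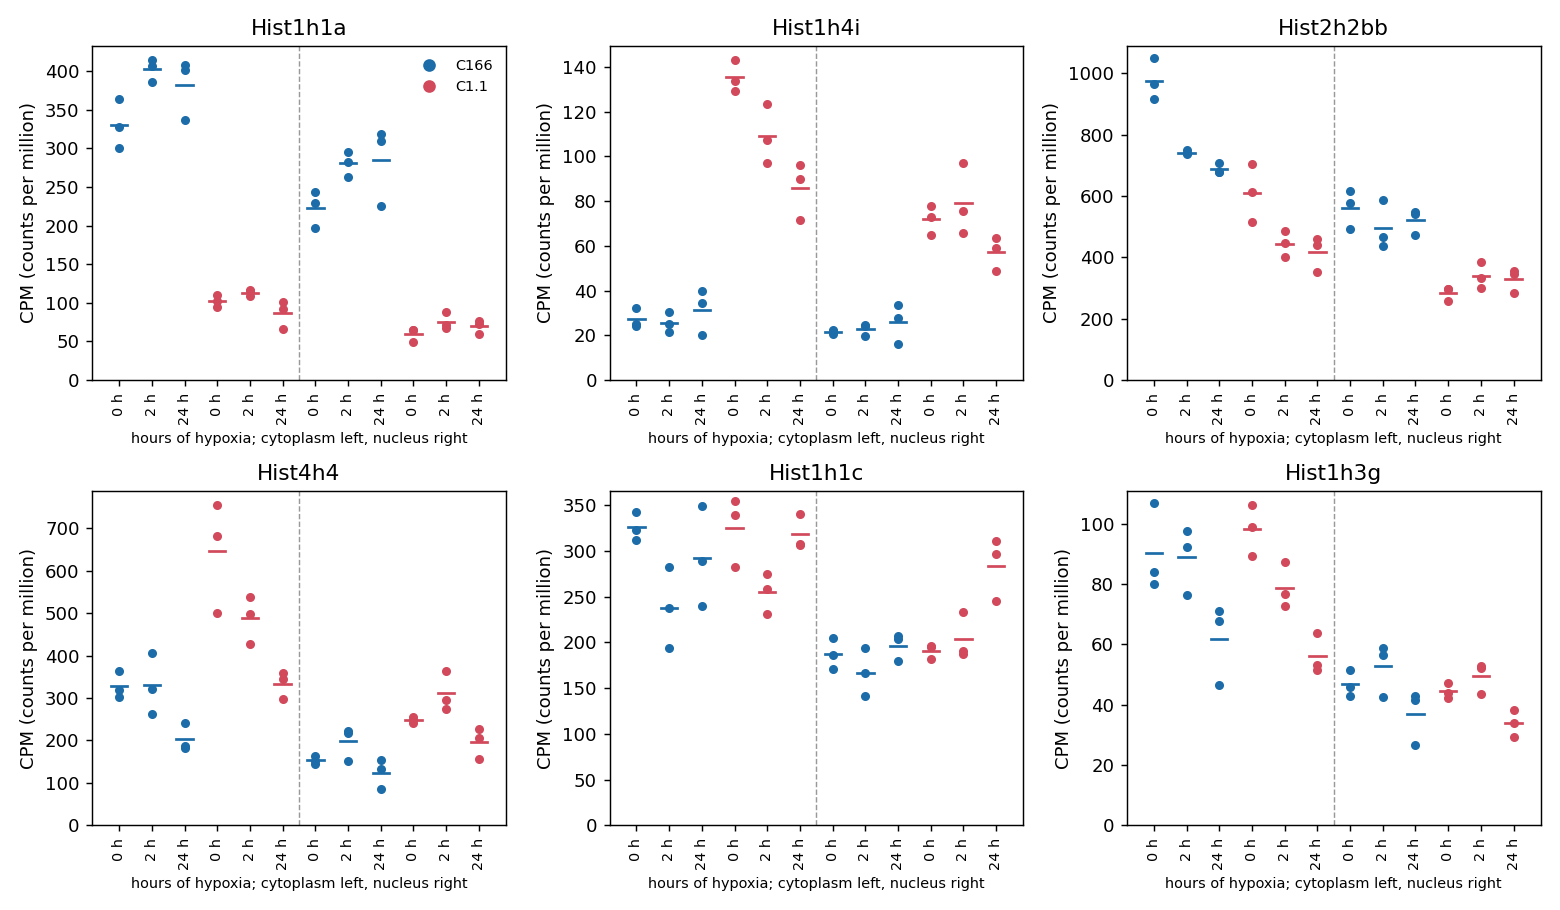
CPM (y axis, from 0, scaled within each fraction) of Hist1h1a, Hist1h4i, Hist2h2bb, Hist4h4, Hist1h1c and Hist1h3g in each library (points) with group means of 3 (dashes), by hours of hypoxia on the x axis and by line in colour, cytoplasm on the left and nucleus on the right of each panel. Hist1h1a lies at 301 to 414 CPM in C166 cytoplasm and 65.6 to 116 in C1.1 cytoplasm, and Hist1h4i lies the other way round.

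After 24 h of hypoxia the cytoplasmic histone messages that changed were lower, and more were called in C1.1 than in C166. In C166 3 of 61 were called lower and none higher by edgeR or DESeq2, where 17.5% of all genes were called lower and 18.2% higher, with 7 members at an unadjusted p under 0.05. In C1.1 17 were called lower by edgeR and 18 by DESeq2, and none higher by either tool, where 18.1% and 18% of all genes were, with 25 members at an unadjusted p under 0.05. The 17 comprised 2 H1, 2 H2A, 4 H2B, 5 H3 and 4 H4 genes. The nuclear RNAs moved in the same comparison, with a cytoplasmic sum of 3856 to 5128 CPM in normoxia and 8725 to 9337 at 24 h in C166, and of 2927 to 2997 and 4160 to 6910 in C1.1, and their part in the histone results was not tested. The members' median log2 fold change was -0.20 in C166 (45 of 61 negative) and -0.36 in C1.1 (52 of 61 negative), against 0.08 and 0.03 over all genes. By class, medians ran from -0.10 for H2A to -0.36 for H3 in C166, and from -0.24 for H1 to -0.52 for H3 in C1.1.

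The summed level of all 69 rows is given as a description, with no test. In C166 cytoplasm it was 7617, 7438 and 8375 CPM in normoxia and 5698, 7037 and 7607 at 24 h, which overlap. In C1.1 cytoplasm it was 7937, 8092 and 6484 CPM in normoxia and 5863, 6031 and 5413 at 24 h, which do not. The H3 sum, the class with the lowest median, was 882, 750 and 984 CPM and then 544, 732 and 754 in C166, and 881, 879 and 765 and then 669, 591 and 451 in C1.1, with overlap in C166 alone. In the nuclei the sum of all rows overlapped between normoxia and 24 h in both lines, at 4312, 4682 and 4551 against 3291, 4656 and 5193 CPM in C166 and at 4043, 3939 and 3628 against 4103, 4242 and 3544 in C1.1.

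The 3 called in C166, Hist4h4, Hist1h3g and Hist2h2bb, were all among the 17 of C1.1, 17.6% of that list. Hist4h4 went from 319, 304 and 363 CPM in normoxic C166 cytoplasm to 182, 188 and 241 after 24 h (-0.69 ± 0.16, edgeR adjusted p = 0.00165), and from 755, 683 and 500 to 359, 345 and 299 in C1.1 (-0.95 ± 0.16, edgeR adjusted p = 6.12e-05). Hist1h3g, an H3 gene, went from 84, 79.9 and 107 CPM to 46.4, 67.9 and 71 in C166 (-0.55 ± 0.15, edgeR adjusted p = 0.00678, and 0.0643 when only the 6 libraries compared were fitted) and from 98.8, 106 and 89.5 to 53.3, 63.8 and 51.6 in C1.1 (-0.80 ± 0.15, edgeR adjusted p = 2.15e-04). Neither gene's normoxic and hypoxic groups overlapped in either line. Hist2h2bb went from 916, 964 and 1050 CPM to 678, 707 and 680 in C166 (-0.50 ± 0.11, edgeR adjusted p = 0.00107) and from 705, 613 and 514 to 352, 460 and 439 in C1.1 (-0.55 ± 0.11, edgeR adjusted p = 4.03e-04), also without overlap.

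Others were called in C1.1. Hist1h3a had 59.1, 59.8 and 42.1 CPM in normoxia and 22.6, 27.1 and 33.3 after 24 h (-0.96 ± 0.22, edgeR adjusted p = 0.00151), without overlap, and Hist1h4i had 143, 134 and 129 against 89.7, 96.3 and 71.4 CPM (-0.66 ± 0.18, edgeR adjusted p = 0.00738), also without overlap. The linker gene Hist1h1b was lower by -0.41 ± 0.11 (edgeR adjusted p = 0.00773), and the rest of the 17 ranged from -0.33 for Hist1h4c to -0.79 for Hist1h2bj. Only Hist1h3g, Hist4h4, Hist1h4i, Hist1h3a and Hist2h2bb of the 17 kept the call whichever of the 6 libraries was left out. The number called fell to 9, 8 or 10 without replicate 1 or 2 of normoxia or replicate 3 of 24 h hypoxia, and it rose to 28 when only the 6 libraries compared were fitted and to 35 (34 lower) without the low-count filter. In C166 13 were called without that filter, and 5 without replicate 1 or 2 of normoxia or replicate 3 of 24 h hypoxia.

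More calls in C1.1 do not show a stronger response there, and the difference itself was tested. No member was called for a difference of the 24 h responses in the cytoplasm by edgeR, where 2.33% of all genes were, with 4 members at an unadjusted p under 0.05 and 1 called by DESeq2. For Hist4h4 the difference (C1.1 minus C166) was -0.26 with a 95% interval of -0.72 to 0.20. For Hist1h4i it was -0.87 (-1.42 to -0.31, edgeR adjusted p = 0.0919). Without replicate 1 of 24 h hypoxic C166 cytoplasm, 1 member was called.

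**Figure D5:**
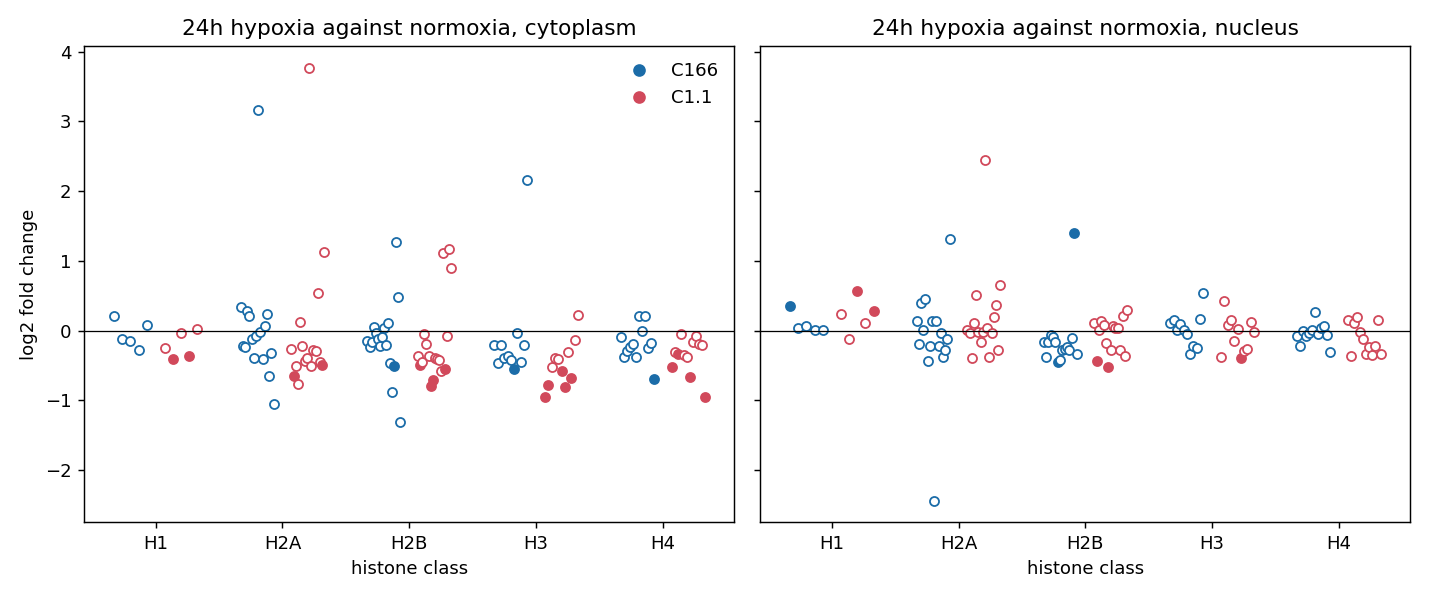
Log2 fold change at 24 h of hypoxia against normoxia (y axis) for the tested histone genes by class (x axis) in each line and fraction; filled points were called at an edgeR adjusted p under 0.05 and open points were not. In C1.1 cytoplasm the 17 filled points all lie below 0, between -0.33 and -0.96, and the nuclear panels hold filled points on both sides of 0.

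In the nucleus few members were called at 24 h, and in both directions. In C166 2 of 59 members were called higher and 1 lower, where 19.2% and 18.4% of genes were. In C1.1 2 were called higher and 3 lower, where 22.3% and 20.5% of genes were. The member medians were -0.06 and 0.01, against 0.00 over all genes in both lines. Hist1h1c, which encodes the linker histone H1.2 and is known to give some poly(A) messages, had 182, 195 and 196 CPM in normoxic C1.1 nuclei and 311, 296 and 245 after 24 h (0.57 ± 0.11, edgeR adjusted p = 1.4e-04). The groups did not overlap and the call held without each of the 6 libraries. In C166 nuclei the same gene had 171, 187 and 205 CPM and then 180, 206 and 203 (0.07 ± 0.11, edgeR adjusted p = 0.679). The difference between the lines was 0.51 (95% interval 0.19 to 0.83, edgeR adjusted p = 0.0609) and so missed the threshold.

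The other linker gene called, Hist1h1e, had 332, 340 and 309 CPM in normoxic C1.1 nuclei and 391, 431 and 371 after 24 h (0.28 ± 0.11, edgeR adjusted p = 0.0355), a call kept in 1 of 6 refits without a library. Hist1h2bj, an H2B gene, was lower in both lines: 76.6, 71.9 and 68.2 against 38.7, 63.2 and 55.8 CPM in C166 (-0.46 ± 0.16, edgeR adjusted p = 0.0254) and 73.6, 73.3 and 78.4 against 57.5, 53.8 and 45.4 in C1.1 (-0.52 ± 0.16, edgeR adjusted p = 0.00939). Neither pair of groups overlapped. Hist1h2bc and Hist1h3g were also lower in C1.1 nuclei (-0.44 ± 0.16 and -0.39 ± 0.15, edgeR adjusted p = 0.0249 and 0.0359), and with Hist1h2bj they were the 3 members lower in both fractions of C1.1, 17.6% of the cytoplasmic and 100% of the nuclear calls.

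In C166 nuclei Hist1h1a was called higher (0.35, edgeR adjusted p = 0.0321) although its groups overlapped at 197, 243 and 229 against 225, 310 and 318 CPM. Hist2h2be was called higher on 11, 12 and 6 against 9, 31 and 57 counts (1.39 ± 0.53, edgeR adjusted p = 0.0412), groups that overlap too. Each was called in only 2 of 6 refits that left out a library. The C166 count was 0 without replicate 1 of normoxia, 1 without replicate 2 of normoxia and 5, all lower, without replicate 3 of 24 h hypoxia. The C1.1 count was 2 without replicate 1 or 2 of normoxia, 8 without replicate 1 of 24 h hypoxia and 12 when only the 6 libraries compared were fitted. No member was called for a difference of the nuclear responses by edgeR, where 4.75% of genes were, with 3 members at an unadjusted p under 0.05 and 1 called by DESeq2. That count was 1 without replicate 1 of normoxic C166 nuclei, 2 without replicate 1 of 24 h hypoxic C166 nuclei and 1 without replicate 3 of 24 h hypoxic C1.1 nuclei.

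The ratio of nucleus to cytoplasm at 24 h was set against that in normoxia in the fit over 36 libraries. In C166 no member was called by edgeR or DESeq2, where 8.42% of genes were, with 2 members at an unadjusted p under 0.05. In C1.1 3 shifted toward the nucleus and none the other way by edgeR or DESeq2, where 6.76% and 4.29% of genes did. Hist1h3b, an H3 gene, had 153, 161 and 129 CPM in the normoxic cytoplasm and 116, 75.5 and 62.9 at 24 h, and 47.4, 55.5 and 62.8 and then 85.4, 59.5 and 73.7 in the nucleus, so its log2 ratio shifted by 1.20 ± 0.32 (edgeR adjusted p = 0.00994). Hist2h2bb shifted by 0.77 ± 0.17 (edgeR adjusted p = 0.00206) and Hist1h1c by 0.61 ± 0.18 (edgeR adjusted p = 0.0223). The Hist1h1c call was lost without replicate 2 of 24 h hypoxic C1.1 nuclei and with upper-quartile factors (edgeR adjusted p = 0.0568 and 0.0528), and 13 members were called, all toward the nucleus, when only the libraries compared were fitted.

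After 2 h of hypoxia few or no members were called. In C166 cytoplasm edgeR called none, where 1.34% of genes were called, with 8 members at an unadjusted p under 0.05 and 2 called lower by DESeq2. In C1.1 cytoplasm Hist2h2bb alone was called lower, where 0.86% of genes were called lower and 1.09% higher. It had 705, 613 and 514 CPM in normoxia and 487, 401 and 447 at 2 h (-0.46 ± 0.11, edgeR adjusted p = 0.0328), without overlap, and the call was lost in 5 of 6 refits, all but that without replicate 3 of normoxia. When only the 6 libraries compared were fitted 15 were called, all lower. In the nucleus none was called in C166 (2.3% of genes, 2 members at an unadjusted p under 0.05, none by DESeq2) or in C1.1 (3.29% of genes, 4 members at an unadjusted p under 0.05, none by DESeq2).

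Some members are known to give poly(A) messages in differentiated or human cells. Of 9 listed, 7 were tested, Hist1h2bd was not analysed here and Hist2h2aa1 had 1 count in all. At 24 h none of the 7 was called in C166 cytoplasm, and Hist1h2bc (-0.49), Hist1h2ac (-0.66) and Hist1h2bk (-0.71) were called lower in C1.1 cytoplasm, where 17 of all 61 members and 18.1% of all genes were. The median of the 7 was -0.16 in C166 and -0.45 in C1.1. Hist1h1c stood there at -0.03 ± 0.13, with 339, 354 and 282 CPM in normoxia and 340, 307 and 306 at 24 h, while Hist1h2be stood at -0.45 (edgeR adjusted p = 0.0662).

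Genes that act on histone messages were called in both directions. Of 28 genes of histone transcription, message processing and decay, all tested, 8 were called higher and 9 lower at 24 h in C166 cytoplasm, and 3 higher and 12 lower in C1.1 cytoplasm, with list medians of -0.13 and -0.18, where 17.5% to 18.2% of all genes were called in each direction. Slbp, the stem-loop binding protein, was lower in both (-0.53 ± 0.10, edgeR adjusted p = 4.21e-04, and -0.48 ± 0.10, edgeR adjusted p = 9.41e-04). The cleavage factor genes Cpsf3 and Cpsf2 were lower in C166 cytoplasm (-0.68 and -0.46) and the scaffold gene Sympk was higher (0.75). In C1.1 cytoplasm the cap-binding Ncbp1 (-0.75) and its partner Srrt (-0.69), Cpsf2 (-0.59) and the decay factor Lsm1 (-0.61) led. In the nuclei the list gave 3 higher and 11 lower in C166 and 2 higher and 9 lower in C1.1. Of all genes, 18.4% to 22.3% were called in each direction there. Slbp stood at -0.13 and 0.06 in the nuclei of C166 and C1.1 and was not called. Between the lines 9 were higher and 4 lower in the cytoplasm and 6 and 8 in the nucleus. There 17.3% to 21.2% of all genes were called in each direction. Hinfp, which binds the H4 promoter element, was higher in C1.1 in both fractions (0.80 and 0.71), and Slbp was lower (-0.35 and -0.27).

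Most S phase genes were called lower at 24 h in C1.1 cytoplasm, and fewer in C166 cytoplasm. These numbers of calls do not show a stronger response in C1.1, and the difference of the responses is not given for this list. Of 32 tested, 14 were lower and 4 higher in C166 cytoplasm and 28 lower and none higher in C1.1 cytoplasm, led by Rrm2, a ribonucleotide reductase subunit (-0.72 ± 0.08 and -1.09 ± 0.08, edgeR adjusted p = 6.21e-07 and 2.14e-09). The list median was -0.22 in C166 and -0.49 in C1.1, against 0.08 and 0.03 over all genes. In these comparisons 17.5% to 18.2% of all genes were called in each direction. In the nuclei 17 were lower and 2 higher in C166, and 23 lower and 1 higher in C1.1, where few histone genes were called. Of all genes, 18.4% to 22.3% were called in each direction there. Between the lines 8 were higher and 9 lower in the cytoplasm and 9 and 9 in the nucleus. There 17.3% to 21.2% of all genes were called in each direction. G2 and mitosis genes gave 6 of 16 lower and 1 higher at 24 h in C166 cytoplasm and 9 lower and none higher in C1.1 cytoplasm. Of all genes, 17.5% to 18.2% were called in each direction there. Whether the share of cells in S phase differed between groups was not measured.

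Histone chaperones and replication-independent variants were called in both directions in the cytoplasm at 24 h. Of 20 chaperone and assembly genes, 8 were lower and 2 higher at 24 h in C166 cytoplasm, and 10 lower and 3 higher in C1.1 cytoplasm. Of all genes, 17.5% to 18.2% were called in each direction there. In the nuclei, where 18.4% to 22.3% of all genes were called in each direction, 12 were lower in C166 and 11 in C1.1. None was called higher there by edgeR, with Ubn1 in C1.1 alone higher at an unadjusted p under 0.05 (0.18, edgeR unadjusted p = 0.0457). Nasp, a chaperone of H1 and of H3 with H4, was lower by -0.74 ± 0.09 and -1.18 ± 0.09 (edgeR adjusted p = 1.75e-06 and 2.76e-09). Of 11 variant genes, whose messages are polyadenylated, 4 were lower and 2 higher in C166 cytoplasm and 4 lower and 1 higher in C1.1 cytoplasm: the macroH2A gene H2afy was lower in both (-0.63 and -0.94), H2afz was lower in C1.1 (-0.74) and H2afv was higher in both (0.49 and 0.63). In the nuclei 2 variant genes were higher and 2 lower in C166, and 5 higher and 3 lower in C1.1. The shares of all genes called in these comparisons are those given for the chaperones. Between the lines the linker variants H1fx (1.80 in the cytoplasm, 2.17 in the nucleus) and H1f0 (0.56 and 0.46) were higher in C1.1, the opposite direction to Hist1h1a.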

How the data were processed

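Total RNA from nuclear and cytoplasmic fractions was depleted of rRNA and sequenced in stranded libraries by the study. The deposited values used here are raw counts per gene symbol, which the authors made on GRCm38 with Ensembl genes; Bowtie2 2.2.2, TopHat 2.0.11, Cufflinks 2.2.1, featureCounts, edgeR and Cuffdiff are named in the methods and the submitters' processing notes, and which of them gave the counts, and how strand and multiply matching reads were treated, was not given in the sources used here. The 36 normalized columns of the same libraries and the authors' own DESeq2 comparisons (fold changes and p-values) in the same table were not used.

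Members were counted by class from the symbol. edgeR 4.0.16 (R 4.3.3, limma 3.58.1) was run on the counts with TMM factors, filterByExpr (minimum count 10, total 15) and the quasi-likelihood test, on the 18 libraries of each fraction and, for nucleus against cytoplasm, on all 36. Calls were made at a Benjamini-Hochberg adjusted p under 0.05 over all genes tested. CPM values are scaled within a fraction unless said otherwise. DESeq2 1.42.0, other scaling factors, no filter, fits on only the libraries compared, a replicate block and leaving out each library were the alternatives. The pipeline was tested on simulated data. Transcripts were taken from GENCODE M21 (GRCm38) and promoters from RefSeq (GRCm38.p6).

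All members were counted. Named with values were the 3 members of each class with the highest mean CPM, up to 3 called members in each direction and comparison with the largest change and no overlap, the poly(A) and testis members, and up to 4 genes of each other list with the smallest p; levels per kb, the members lost or overlapping under a single library and Hist1h4d, Hist2h4, Hist1h1b and Slbp were added after values were seen. The members and lists were chosen with earlier results of these data known. The replicates are separate samples of a group, but nothing says that they were separate cultures, so p-values measure only the spread between these samples. No library was a copy of another of its group (lowest chi-square per degree of freedom between replicates 3.36), and libraries of different groups were not compared in this way.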

Additional observations from a re-analysis of the deposited data

How the results depend on the processing

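The alternatives were followed for the member of each class with the highest mean CPM and for the called members named for the largest changes. No call among them changed direction: 1401 values kept their side of the threshold, 48 lost the call and 14 gained it. A change of sign in a gene called in neither fit was not counted, and other named genes were not covered. Relative log expression and upper-quartile factors moved no count of called members by over 1.5 times, though upper-quartile factors raised the median of all genes by 0.101 between the lines in the nucleus and by 0.204 for nucleus against cytoplasm in C1.1. Without the low-count filter more members were called, namely 7 (C166) and 13 (C1.1) at 2 h and 13 and 35 at 24 h in the cytoplasm, 3 and 6 at 2 h and 9 and 15 at 24 h in the nucleus, 20 and 16 between the lines in cytoplasm and nucleus, 5 and 3 for the difference of the 24 h responses, and 1 (C166) and 7 (C1.1) for the shift of the ratio. DESeq2 called 2 and 3 members at 2 h in the cytoplasm of C166 and C1.1, and 1 for the difference of the responses in each fraction. Fits on only the libraries compared called 15 at 2 h and 28 at 24 h in C1.1 cytoplasm, 1 at 2 h in C166 nuclei, 12 at 24 h in C1.1 nuclei, 24 between the lines in the nucleus, 1 for the difference of the nuclear responses and 13 for the shift in C1.1. The cause of these changes was not tested.

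With each library left out in turn, the members called at 24 h ranged from 3 to 5 in C166 cytoplasm, 8 to 19 in C1.1 cytoplasm, 0 to 5 in C166 nuclei and 2 to 8 in C1.1 nuclei. The count at 2 h in C1.1 cytoplasm ranged from 0 to 1, the difference of the responses from 0 to 1 in the cytoplasm and 0 to 2 in the nucleus, nucleus against cytoplasm from 44 to 50 in C166 and 51 to 54 in C1.1, and the line comparison from 8 to 12 in the cytoplasm and 7 to 8 in the nucleus.

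Replicate numbers gave no sign of pairing: deviations of same-numbered libraries correlated by -0.044 to 0.067, and no comparison had every pair over 0.1. This cannot show that samples were unpaired. A nuclear and a cytoplasmic library may come from the same cells, and neither the main fit nor the replicate block modelled that pairing. With a replicate block 1 member was called for the difference of the nuclear responses, 17 were called at 24 h in C1.1 cytoplasm, and no other count moved by over 1.5 times. With 3 libraries a group, rows of few counts and members that share their sequence limit what can be said of single genes.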
